A study of Mus musculus with 6 samples.

Results

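The colony-stimulating factors are secreted cytokines that instruct blood-forming cells and mature leukocytes to make, keep alive and activate granulocytes and macrophages. The 8 genes described here, of 23462 named genes on the array, are the ligands Csf1, Il34, Csf2 and Csf3 and the receptor genes Csf1r, Csf2ra, Csf2rb and Csf3r. They were taken by gene name, with all 14 of their probes among 56605. Expression was measured in colon of 6 male mice with 1 single-colour Agilent array per animal, 3 control mice and 3 Islr knockout mice. Islr codes for a secreted protein with leucine-rich repeats, made by stromal cells. By the sample source, the mice of both groups had been given 3.5% dextran sulfate sodium (DSS), which injures the colonic epithelium, in their drinking water for 5 days, and then 1 day to recover. The treatment field of the same samples reports no treatment. Age, strain, and whether Islr was lost in the whole animal or in chosen cells are not given in the sources used here.

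Csf1 (M-CSF) and Il34 (interleukin 34) both bind the receptor tyrosine kinase encoded by Csf1r, which maintains macrophages and monocytes. Csf2 (GM-CSF) binds a receptor made of the ligand-specific alpha chain Csf2ra and the signalling beta chain Csf2rb, and signals through JAK2 and STAT5. Csf3 (G-CSF) binds Csf3r, which signals through JAK kinases and STAT3 and drives the production and release of neutrophils. Csf1 is made by fibroblasts, endothelium and muscle, among others, whereas Csf2 and Csf3 are induced by inflammatory signals and carry AU-rich messages that decay quickly. In the gut, innate lymphoid cells are a known source of GM-CSF, and stromal and myeloid cells of G-CSF.

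Probes of Csf3 and Csf1 were called lower in the Islr knockout colon. All 3 control arrays detected Csf3 well above background and none of the knockout arrays did, a level at least 14.3-fold higher in controls. Csf1 was lower by 2.15-fold and 2.19-fold at its called probes, which are not independent. Its brightest probe was not called (limma adjusted p 0.0887). With 1 array left out, the 2 calls held in 0 and 1 of 6 fits. Csf2 was not called; its fitted difference was 6.71-fold, with only 1 of 3 knockout arrays well above background. Il34 and all receptor genes that could be tested were not called.

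The promoter windows of 3 members are shown because Csf1 had called probes, Csf2 the next lowest p among the ligands, and Csf3r, a receptor, was not called. Each is the 250 bases before the annotated gene start, 5′ to 3′ on the gene's strand, from RefSeq (GRCm38.p6), and capitals mark motif matches. The windows lie on the minus strand at chr3:107760470-107760719 for Csf1, on the minus strand at chr11:54249900-54250149 for Csf2 and on the plus strand at chr4:126024409-126024658 for Csf3r. The start used can differ between transcripts of a gene. No usable window was available for Csf3, which also had a called probe. The window of Csf2ra, which could not be tested for expression, is not shown.
Csf1: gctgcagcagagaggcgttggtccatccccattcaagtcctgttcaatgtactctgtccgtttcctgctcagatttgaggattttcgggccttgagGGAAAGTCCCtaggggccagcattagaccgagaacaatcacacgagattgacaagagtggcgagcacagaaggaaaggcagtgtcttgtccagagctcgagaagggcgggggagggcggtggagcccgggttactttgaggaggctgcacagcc
Csf2: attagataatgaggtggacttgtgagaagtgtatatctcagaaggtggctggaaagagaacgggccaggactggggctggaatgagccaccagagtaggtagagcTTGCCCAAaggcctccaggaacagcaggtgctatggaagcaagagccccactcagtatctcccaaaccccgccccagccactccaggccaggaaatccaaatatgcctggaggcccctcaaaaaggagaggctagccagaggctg
Csf3r: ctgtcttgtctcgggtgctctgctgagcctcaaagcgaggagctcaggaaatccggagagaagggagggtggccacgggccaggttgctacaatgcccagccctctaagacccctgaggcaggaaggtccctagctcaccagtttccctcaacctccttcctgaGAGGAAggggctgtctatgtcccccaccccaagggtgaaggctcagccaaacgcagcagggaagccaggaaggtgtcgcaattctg
Both strands were searched for the NF-kB consensus, AP-1 (TGANTCA), C/EBP (TTGCNNAA), the PU.1 core (GAGGAA) and the TATA box (TATAAA), and no matches overlapped in these windows. The Csf1 window held an NF-kB match on the opposite strand, 154 to 145 bases before the start; 3.9% of 32841 windows of that length held one. The Csf2 window held a C/EBP match 145 to 138 bases before the start (9.57% of windows). The Csf3r window held a PU.1 core 86 to 81 bases before the start (23.3% of windows). The Csf2ra window, not shown, held PU.1 cores 14 to 9 and 8 to 3 bases before the start. Such matches describe letters in these windows only; binding was not measured.

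Signals are given as log2 of the processed signal relative to the 75th percentile of the array, so 0 is that percentile, and levels of different probes are not compared. Tested probes had signal well above background throughout at least 1 group of 3 arrays and 2 or more usable spots in each group; a spot marked by the scanner software as an outlier was not usable. At a 5% false discovery rate in limma over 35351 tested probes, 3.97% of probes were called, 2.42% lower and 1.55% higher in the knockout. The 14 member probes gave 13 tested probes of 7 genes, of which 3 were called, all lower, representing 2 genes. The difference was below 0 at 10 of the 13, against 50% of all tested probes. The unadjusted limma p was under 0.05 at 7 of the 13, against 26.8%. Those 7 are probes of Csf1, Csf2, Csf3 and Csf2rb only, and probes of 1 gene are not independent. By the brightest tested probe of each gene, 1 of 7 members was called, against 3.82% of named genes. It was Csf3, which passed the filter through its controls alone. So did Csf2 and the Csf2rb probe A_55_P2743485, and passing in this way favours a lower knockout value. With all 6 arrays required to be well above background, 0 members were called. The median difference of the 7 members was -0.90, against 0.01 over all named genes. That median was -0.54 without knockout replicate 1, -0.37 over the 5 members well above background on all 6 arrays, and -0.24 with the median over the probes of a gene. The groups did not overlap at 7 of the 11 member probes with 6 usable values, and at 34.5% of all such probes. The knockouts were the lower group at 6 of the 11, against 18% of all such probes. Both member counts include Csf2 and A_55_P2743485, and more than 1 probe of some genes. With 3 arrays a group, an exact permutation test cannot give less than p = 0.1.

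Islr, the targeted gene, differed by -2.44 (SE 0.21, adjusted p 0.0171 in limma), with all 6 arrays well above background; without knockout replicate 3 it was -2.39 (adjusted p 0.0580). With the outlier spot of control replicate 1 kept, the 3 controls lay between 1.21 and 1.57 and the 3 knockouts between -1.40 and -0.93. The 6 arrays were on 1 slide, controls in its first row and knockouts in its second, so slide row and genotype cannot be told apart. The 75th percentile of the signal was 6353 to 7110.45 in controls and 4910.5 to 5820 in knockouts. The series text speaks of flow separation, yet all 8 epithelial, 8 fibroblast, 7 endothelial and 6 smooth muscle marker genes checked were well above background on all 6 arrays.

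**Figure D1:**
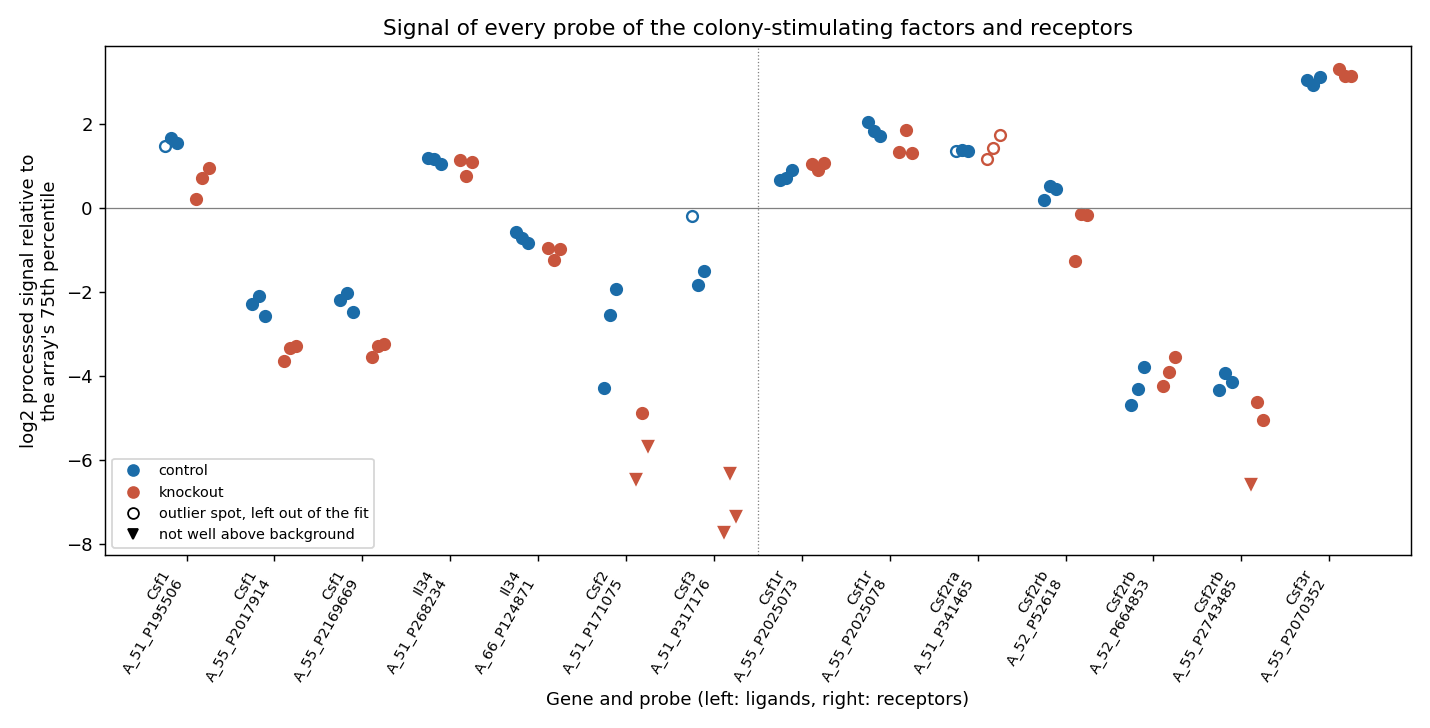
The y axis gives log2 processed signal relative to the 75th percentile of the array for every member probe (x axis), 3 control arrays in blue and 3 knockout arrays in red; open circles are outlier spots and triangles are spots not well above background. The knockout signals of Csf3 lie between -7.70 and -6.31, below every control, whereas those of Csf3r lie between 3.14 and 3.31.

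Csf3, the granulocyte factor, had the largest difference among the 13 tested probes. Its single probe (A_51_P317176) read -1.83 and -1.50 in control replicates 2 and 3, and -0.19 in control replicate 1, whose spot was marked as an outlier. It read -7.70, -6.31 and -7.32 in knockout replicates 1, 2 and 3, none of them well above background. On the unscaled signal this is 5571, 2004 and 2315 units in the controls and 23.6, 73.5 and 36.1 units in the knockouts, so the groups were far apart and control replicate 1 was the brightest.

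Since no knockout array measured Csf3, only a bound can be given. Controls averaged -1.66 over 2 usable arrays, and the knockout bound, the dimmest well-above-background signal of each array, averaged -5.50, which makes controls at least 14.3-fold higher. The probe passed the filter through its controls alone. Its fit used knockout signals that were not well above background, so the p is given as a description. On these values the limma adjusted p of the probe was 0.0169. It was 0.0107 with the outlier spot kept, where the exact permutation p was 0.1. The call was lost without knockout replicate 3 (adjusted p 0.0535) and held without knockout replicate 1 (0.0388) or 2 (0.0111). The spot of control replicate 1 was not in the fit. Leaving out control replicate 2 or 3 left 1 usable control, which allowed no test.

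Csf2, the factor for granulocytes and macrophages, was low and variable. Its probe (A_51_P171075) read -4.28, -2.55 and -1.92 in control replicates 1, 2 and 3, and -6.45, -4.89 and -5.66 in the knockouts. All 3 controls but only knockout replicate 2 were well above background. The groups did not overlap, although control replicate 1 lay closer to knockout replicate 2 than to the other controls. The difference was -2.75 (SE 0.66; 95% interval -4.33 to -1.17) and was not called (limma adjusted p 0.0657); its size is uncertain because 2 knockout signals were not well above background, and with normexp it was -1.87. It was called without control replicate 1, with a difference of -3.43 (adjusted p 0.0312), and with median centring, normexp or array weights (0.00871 to 0.0495). Control replicate 1 was the lowest control for Csf2 and, with its outlier spot, the highest for Csf3.

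Csf1, the main macrophage growth factor, was measured by 3 probes that all read lower in the knockout. The called probe A_55_P2169669 read -2.18, -2.02 and -2.47 in the controls and -3.55, -3.28 and -3.24 in the knockouts. The other called probe, A_55_P2017914, followed it from array to array, the log2 ratio of the pair changing by 0.03 between the groups; both carry the same transcript accession, so they are not independent. The lowest control stood above the highest knockout at each.

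The differences were -1.13 (SE 0.18; 95% interval -1.57 to -0.70; limma adjusted p 0.0354) and -1.10 (SE 0.19; adjusted p 0.0392). The third Csf1 probe (A_51_P195506), annotated to another transcript, read 1.67 and 1.54 in control replicates 2 and 3 and 0.21, 0.71 and 0.95 in the knockouts, with an outlier spot at 1.48 in control replicate 1. It was lower by a like amount, -0.98 (SE 0.26), and was not called (adjusted p 0.0887). The 3 probes were below 0 in every setting tried. When 1 array was left out, A_55_P2017914 was called in none of 6 fits (adjusted p 0.0508 to 0.121). A_55_P2169669 was called only without control replicate 1 (0.0461; otherwise 0.0542 to 0.111). Without the filter on dim probes, both missed the threshold (0.0526 and 0.0585).

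Il34, the second ligand of the same receptor, is made by epithelial, neuronal and stromal cells in several organs. Its probe A_51_P268234 read 1.20, 1.16 and 1.04 in the controls and 1.15, 0.77 and 1.10 in the knockouts. These values overlapped, with a difference of -0.12 (95% interval -0.52 to 0.27; limma adjusted p 0.661). Probe A_66_P124871 read -0.56, -0.71 and -0.82 in the controls and -0.94, -1.24 and -0.97 in the knockouts. There the groups did not overlap, and the difference of -0.35 (95% interval -0.74 to 0.04) was not called (adjusted p 0.221). The interval of neither probe reached -1.10, the difference of the called Csf1 probe with the smaller change. However, the intervals of the called Csf1 probes, which reached up to -0.70 and -0.65, overlapped that of A_66_P124871. A difference between Csf1 and Il34 was not tested.

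**Figure D2:**
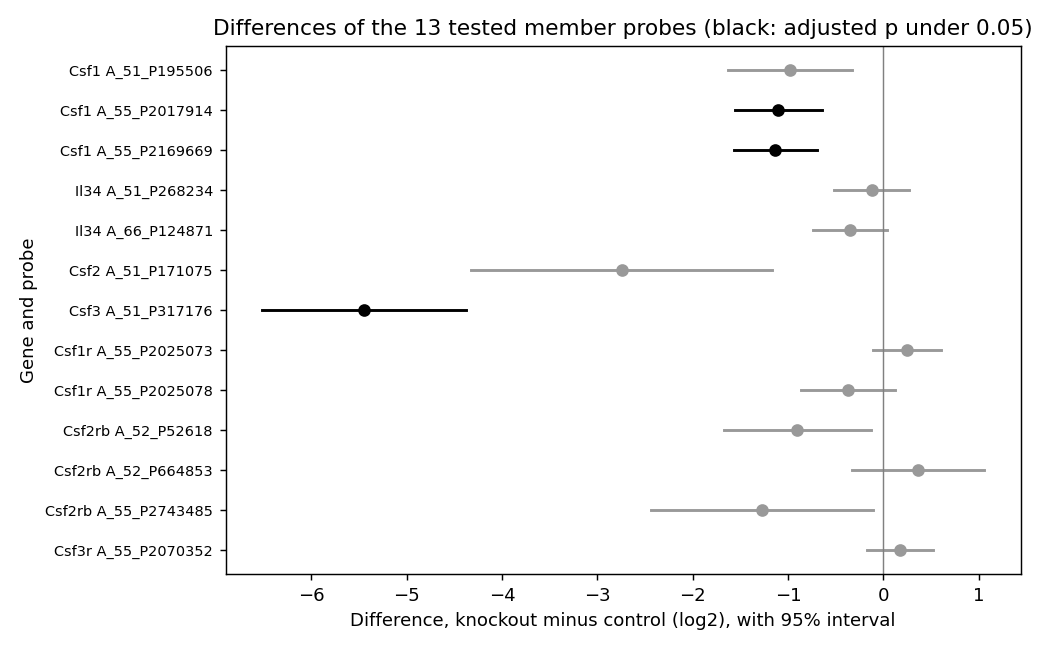
Points give the difference in log2 signal, knockout minus control, of the 13 tested member probes (y axis) and lines its 95% interval from limma; black marks an adjusted p under 0.05. The called probes are the single Csf3 probe and 2 of 3 Csf1 probes; the Csf3 point of -5.45 is the fitted value, which is no bound, as its knockout signals were not well above background.

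Csf1r, the receptor for Csf1 and Il34 and a marker of macrophages and monocytes, had 2 probes that pointed in opposite directions. Probe A_55_P2025078 read 2.06, 1.83 and 1.72 in the controls and 1.33, 1.85 and 1.31 in the knockouts, with knockout replicate 2 inside the control range. Its difference was -0.37 (95% interval -0.86 to 0.12; limma adjusted p 0.296). Probe A_55_P2025073 read 0.67, 0.72 and 0.90 in the controls and 1.04, 0.90 and 1.08 in the knockouts. Its difference was 0.24 (95% interval -0.11 to 0.60; adjusted p 0.339). Each kept its sign in all 14 alternatives, and the log2 ratio of the pair changed by 0.61 between the groups (exact permutation p = 0.2). The fitted differences of the Csf1 probes lay outside both intervals. However, the intervals of the called Csf1 probes, which reached up to -0.70 and -0.65, overlapped that of A_55_P2025078. A difference between Csf1 and Csf1r was not tested.

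Csf2ra, the GM-CSF alpha chain, could not be tested. Its probe (A_51_P341465) was well above background on all 6 arrays, but the spots of control replicate 1 and of all 3 knockouts were marked as outliers. With those spots kept, it read 1.37, 1.37 and 1.36 in the controls and 1.16, 1.43 and 1.74 in the knockouts. The knockouts lay on both sides of the controls, with a difference of 0.07 (limma adjusted p 0.826; exact permutation p = 0.7).

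Csf2rb, the beta chain shared by the receptors for GM-CSF, interleukin 3 and interleukin 5, had 3 probes that disagreed. Probe A_52_P52618 read 0.19, 0.52 and 0.45 in the controls and -1.26, -0.14 and -0.16 in the knockouts, and A_55_P2743485 read -4.33, -3.93 and -4.13 against -6.56, -4.61 and -5.04. At both, the groups did not overlap and knockout replicate 1 was the lowest array. At A_55_P2743485 the signal of knockout replicate 1 was not well above background, so the size of that probe's difference is uncertain. The differences were -0.90 (SE 0.32, limma adjusted p 0.137) and -1.27 (SE 0.49, adjusted p 0.156), neither called; each was called under 1 of the alternatives, array weights. Without knockout replicate 1 they were -0.54 and -0.69, and with normexp the second was -0.56.

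Probe A_52_P664853 of Csf2rb read -4.68, -4.31 and -3.77 in the controls and -4.23, -3.89 and -3.53 in the knockouts. It overlapped and leaned the other way, by 0.37 (SE 0.29, adjusted p 0.455). The log2 ratio of A_52_P52618 to it changed by -1.27 between the groups (exact permutation p = 0.1). All 3 probes carry the same transcript accession. Csf2rb lies beside Csf2rb2, a close paralogue whose product pairs with the interleukin 3 receptor, and the probes may capture transcripts of either. The Csf2rb2 probe had 3 outlier spots and was not tested; with them kept it read 0.50, 1.02 and 0.38 in the controls and -1.07, 0.54 and 0.22 in the knockouts, again lowest in knockout replicate 1. That array also had the dimmest 75th percentile (4910.5) of the 6.

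Csf3r, the G-CSF receptor and a marker of neutrophils, was not lower in the knockout after scaling. Its probe (A_55_P2070352) read 3.04, 2.93 and 3.11 in the controls and 3.31, 3.14 and 3.14 in the knockouts. The 3 knockouts lay just above the 3 controls, by 0.17 (SE 0.14; 95% interval -0.17 to 0.52; limma adjusted p 0.483). The difference was between 0.01 and 0.21 in all settings. Unscaled, the signal was 52113, 54161 and 56368.5 units in the controls and 48589, 51429 and 50814 units in the knockouts. There every knockout lay below every control, so the direction depended on the scaling between arrays. No spot was marked saturated. Whether a signal this bright still follows the RNA level, and whether this single probe is specific, was not tested.

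The values of other neutrophil markers stand beside this. Of 12 listed markers 9 were tested, with a median of -2.86. Of these, 7 were called lower, against 2.47% of named genes, and 1 higher, against 1.55% of tested probes. Those called lower included Retnlg, a resistin-like protein of neutrophils (-4.47, SE 0.39), and the calprotectin subunits S100a8 (-3.92) and S100a9 (-3.73). The collagenase Mmp8 (-3.85), the chemokine receptor Cxcr2 (-1.93), Camp (-1.20) and Mmp9 (-2.86) were called lower too. Mmp8 and Mmp9 passed the filter through their controls alone, with 2 of 3 knockout arrays well above background. The sizes of their differences, and the median, which is the value of Mmp9, are therefore uncertain. Ltf, whose product lactoferrin is also made by epithelia, was called higher (3.66, SE 0.45, limma adjusted p 0.0299). It was the only gene of any list called higher. Mpo differed by -0.20 and was not called. Ngp and Elane, of neutrophil precursors, were well above background on no array. Ly6g, a surface marker of neutrophils, had 3 outlier spots and was not tested; with them kept it read 2.50, 1.69 and 2.43 in the controls and 3.08, 2.82 and 3.06 in the knockouts, higher in all 3. Summed over the 9 tested markers, the level in units of the array's 75th percentile was 11.8 to 14.0 in controls and 1.31 to 2.41 in knockouts. Over all 12 it was 17.2 to 18.4 and 8.81 to 10.8, of which Ly6g made up 3.22 to 5.68 and 7.07 to 8.45. In bulk colon, fewer cells of a type and less RNA per cell cannot be told apart.

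Macrophage and monocyte markers stand beside Csf1 and Csf1r. Of 14 listed, 12 were tested and 0 were called in limma, with 9 lower and a median of -0.74. An unadjusted p under 0.05 was reached by 6 of the 12, against 26.8% of all tested probes. Their summed level overlapped between the groups (39.0 to 49.0 in controls, 35.8 to 39.5 in knockouts). The largest differences were those of Timd4 (-1.04, SE 0.52), the macrophage surface receptor Adgre1 (-0.96, SE 0.27), and the complement subunit C1qb (-0.91, SE 0.27). Dendritic cell markers, 7 of 8 tested, had a median of -0.33 and 0 calls (1 at an unadjusted p under 0.05).

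Markers of cells that can make the ligands gave 0 calls in limma by the brightest probe. All 8 fibroblast markers read lower, with a median of -0.52, and 4 had an unadjusted p under 0.05, against 26.8% of all tested probes. Their summed level was 42.1 to 47.0 in controls and 26.0 to 35.8 in knockouts. Pdpn, a podoplanin gene raised in activated fibroblasts, had the largest difference there (-1.40, SE 0.31, adjusted p 0.0581). All 6 tested endothelial markers read lower (median -1.26, 5 at an unadjusted p under 0.05), and the highest knockout sum, 5.62, lay below every control. Epithelial markers read higher at 6 of 6 tested genes (median 1.00, 1 at an unadjusted p under 0.05; sum 18.2 to 53.3 in controls and 62.3 to 80.7 in knockouts), as did smooth muscle markers at 5 of 5 (median 0.36, 1 such p). T and innate lymphoid markers had a median of -0.01 (1 such p). The part of these differences in the values of Csf1, Csf2 and Csf3 was not tested.

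Among markers of rarer cells, Prg2, the major basic protein of eosinophils, was called lower (-1.89, SE 0.31, adjusted p 0.0354), while Siglecf of the same list differed by 0.76 and Ccr3 was well above background on no array. The 2 tested mast cell markers (of 6) and the 5 tested B and plasma cell markers (of 6) gave 0 calls in limma (and 0 at an unadjusted p under 0.05), with medians of -0.81 and -0.88.

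**Figure D3:**
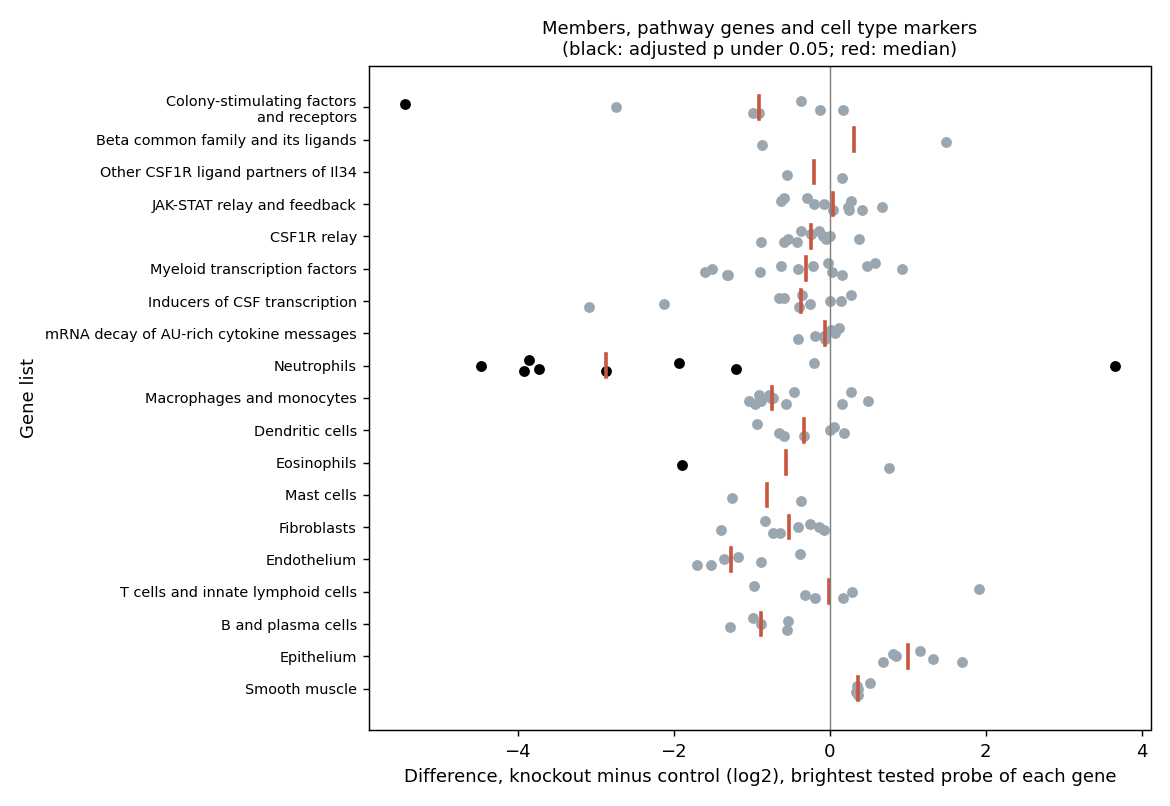
Each point is the difference in log2 signal, knockout minus control, of a gene by its brightest tested probe, grouped by list (y axis); black marks an adjusted p under 0.05 and red bars are medians. The neutrophil list holds 8 of the 9 called list genes, 7 lower and 1 higher, and no gene of the pathway lists is called.

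Among the 7 lists of other pathway genes, 0 genes were called in limma by their brightest probe, and 9 reached an unadjusted p under 0.05. These were 1 of 2 tested genes of the beta chain family, 0 of 2 partners of interleukin 34, and 2 of 11 JAK-STAT genes. The rest were 1 of 12 genes of the Csf1r relay, 3 of 14 transcription factors, 2 of 10 inducers and 0 of 7 decay regulators. Over all tested probes the share was 26.8%. In the family that shares the beta chain, Il3ra differed by -0.87 (adjusted p 0.0759), and a second probe of this interleukin 3 receptor alpha chain was called (-1.09, SE 0.21, adjusted p 0.0455). Il5ra differed by 1.496 with an SE of 1.52, and Il5 was well above background on no array. Il3 was well above background on at most 4 arrays and was not tested. Of other binding partners of interleukin 34, Ptprz1 differed by 0.16 and Sdc1 by -0.55.

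Of 13 genes of the JAK-STAT relay and its feedback, 11 were tested, 5 lower and 6 higher, with a median of 0.04. The largest differences were those of the feedback inhibitors Socs1 (0.67, SE 0.20, adjusted p 0.0983) and Socs3 (-0.63, SE 0.38, adjusted p 0.345) and of the kinase Pim1 (-0.58, SE 0.16, adjusted p 0.0797). Stat3, which relays G-CSF, differed by -0.07, and Cish, a STAT5 target, by 0.04. Genes of the relay below Csf1r were lower at 10 of 12 tested, with a median of -0.24. Tyrobp, the adaptor of myeloid cells, had the largest difference (-0.88, SE 0.29, adjusted p 0.121), followed by the kinase Fgr (-0.59) and the phosphatase Ptpn6 (-0.53).

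Of 15 myeloid transcription factors, 14 were tested and 9 were lower (median -0.31). Egr2 (-1.60, SE 0.39, adjusted p 0.0667), Runx1 (-1.51, SE 0.32, adjusted p 0.0537) and Spi1, which encodes PU.1 (-1.32, SE 0.43, adjusted p 0.115), had the largest differences; of the knockouts, only 1 of 3 had Spi1 well above background. A dimmer probe of Gfi1, a factor of granulocyte maturation, was called (-1.29, SE 0.21, adjusted p 0.0353), whereas its brightest differed by 0.58. Cebpe, which acts late in granulocyte maturation, differed by -0.02.

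Inducers of Csf2 and Csf3 transcription were tested at 10 of 14 genes, with 7 lower and a median of -0.37. Il1a (-3.09, SE 0.83, adjusted p 0.0799) and Il1b (-2.12, SE 0.96, adjusted p 0.226), the ligands of the interleukin 1 receptor, had the largest differences, followed by Tnfrsf1a, a receptor for TNF (-0.65, SE 0.20, adjusted p 0.106). Tnf differed by 0.14. Il1r1, the interleukin 1 receptor, had 4 outlier spots and was not tested; with them kept it read 1.40, 1.68 and 1.61 in the controls and -1.84, -0.15 and -0.18 in the knockouts. Il17a was well above background on 1 array and was not tested. Regulators of the decay of AU-rich messages differed little: the 7 tested of 8 lay between -0.41 (Zfp36l1) and 0.12 (Zc3h12a), with a median of -0.06.

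For the 4 members measured on all 6 arrays by their brightest probe, the named genes with the most similar pattern were found among 12562 others by Pearson's r over the 6 arrays. They share arrays, scaling and the difference between genotypes, and r is given as a description. Csf3r was nearest to Pard3 (0.998), Gm4425 (0.997) and Psg23 (0.992), and Csf2rb to Cd34 (0.998), Arl5c (0.997) and Polr3d (0.997). Csf1r was nearest to Fitm2 (0.989), D330050I16Rik (0.985) and Dhdh (0.980), and Il34 to Map4k5 (0.989), Zbtb39 (0.984) and Wdr83os (0.978).

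**Figure D4:**
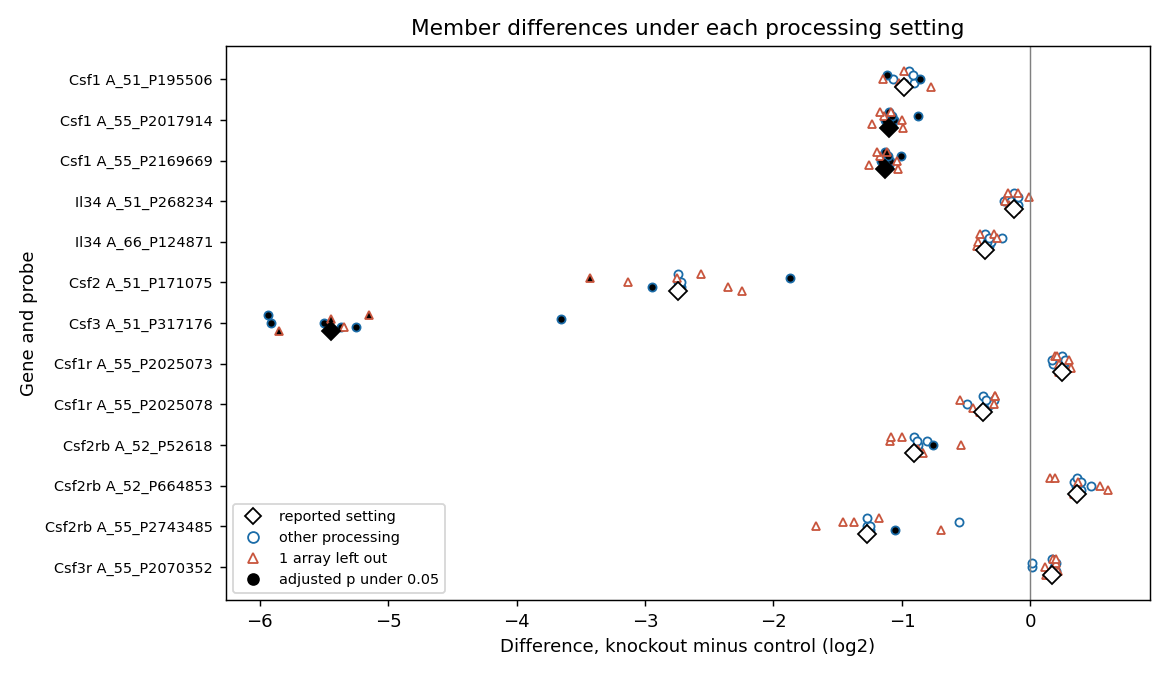
Each point is the difference in log2 signal, knockout minus control, of a member probe (y axis) under the reported setting (diamond), another processing (circle) or with 1 array left out (triangle); filled points have an adjusted p under 0.05. No probe crosses 0, and Csf2 ranges from -3.43 to -1.87.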

How the data were processed

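Scanner output came from Agilent Feature Extraction 11.5.1.1, per the file headers; the submitters' processing notes name version 10.7. Cy3 and green are named in the labels, but the files hold the red channel alone, which was used. The deposited processed signal is a linear intensity after detrending and background subtraction within an array, unscaled between arrays, per the file headers. The deposited value table holds the same intensity (log2 correlation of at least 0.999999 with each array) and served as an alternative.

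Of 59305 non-control spots, outlier spots (3.263% to 15.99% per array) were left out; no spot was saturated. The signal was converted to log2, the 75th percentile of the array was subtracted, and spots of a probe were averaged. Groups come from the genotype in the labels; replicate numbers name animals and pair none. The 35351 eligible of 56605 probes were fitted with limma 3.58.1 (R 4.3.3), two-sided, with Benjamini-Hochberg adjustment; the procedure was tested on simulated data. Probes were named by RefSeq accession in GRCm38.p6 (33767 named). The number of arrays limits the precision.

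The members and lists were chosen with earlier results of these data known. All member probes were named; from each list, called genes and otherwise the 3 largest differences, with further genes added after their values were seen.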

Additional observations from a re-analysis of the deposited data

How the results depend on the processing

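Of the 13 tested member probes, none changed sign under any alternative. Member probes called, 3 as reported, numbered 5 with normexp and quantile normalization, 7 with array weights, 1 without the filter on dim probes, and 0 to 3 with 1 array left out. Member genes called by the brightest probe, 1 as reported, numbered 2 with median centring, 3 with normexp, 4 with array weights, 0 when all 6 arrays had to be well above background (which removes Csf3), 2 with the median over the probes of a gene, and 0 to 2 with 1 array left out. List genes called, 9 as reported, numbered 14 with median centring, 17 with normexp, 33 with array weights, 14 with the value table and 1 to 11 with 1 array left out. Over all probes, calls went from 1403 to 40 (without knockout replicate 3) and 9292 (array weights, 49.4% of them higher against 39.1%). The Islr difference was -2.58 to -2.34 in the 4 fits with 1 array left out that could be made (not without control replicate 2 or 3), and its call was lost without knockout replicate 3 (adjusted p 0.0580). The median difference of the member genes, -0.90 as reported, was -1.08 to -0.54 with 1 array left out, -0.61 with the value table, -0.37 when all 6 arrays had to be well above background and -0.24 with the median over the probes of a gene. No paired analysis was possible because the labels give the animals no shared replicate numbers. Signals near background limit Csf2, Csf3 and the Csf2rb probe A_55_P2743485, and outlier spots limit Csf2ra. The cause of the changes in counts was not tested.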
